A study of Mus musculus with 2 samples.

Results

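The genes described here encode the machinery that copies DNA and divides the cell: 45 named genes of DNA replication and mitosis, out of 21938 protein-coding genes in the GENCODE M21 annotation. They were listed by function, with earlier results of these data known, and all 45 symbols were found in the annotation. There are 22 replication genes (Mcm2 to Rrm2), 21 mitotic genes (Ccna2 to Mki67) and the genes of the transcription factors FOXM1 and E2F1, which are kept apart from both classes. The samples are labelled as ATAC-seq, which cuts accessible chromatin with a transposase, of primary T-helper 1 cells of strain C57BL/6NJ mice, for which the labels give no treatment or allele, as 2 biological replicates that carry the same donor identifier. The names of the regions also carry a time and the words ASTARR and insert, whose meaning is not stated, so whether the libraries were plain ATAC-seq, and thus what the signal measures, is not certain. The sex was not collected, the age is unknown, and the labels do not say whether the replicates came from separate animals.

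Before DNA synthesis, the origin recognition complex, CDC6 and CDT1 load the ring-shaped MCM helicase onto DNA, and GINS and MCM10 help to activate it. In mitosis, cyclin B with CDK1, the Aurora and Polo-like kinases, kinesins and the spindle checkpoint sort the copied chromosomes. In mammals, genes of the replication class are typical targets of E2F factors, and genes of the mitotic class carry a short promoter element called the cell cycle genes homology region (CHR). The CHR is bound by the DREAM complex in resting cells and by MuvB with B-MYB and FOXM1 in dividing cells. Helper T cells divide rapidly once they are activated.

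The lists held 98875 open regions in replicate 1 and 91488 in replicate 2, which formed 84380 shared regions. The number of reads behind them is unknown. T cell and T-helper 1 marker genes (Cd3d, Cd3e, Cd3g, Cd4, Cd28, Tbx21, Ifng, Il12rb2, Cxcr3 and Stat4) had a promoter region in both replicates in 10 of 10 cases. The B cell, myeloid, NK cell and liver genes Cd79a, Lyz2, Csf1r, Ncr1 and Alb had one in 0 of 5. The signal of a region is the enrichment that the authors' caller assigned to it. Signal values are given for replicate 1 and then replicate 2. In bulk samples a region open in few cells cannot be told apart from a region weakly open in all of them.

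All 45 members had a shared open region within 1 kb of a start, called here an open promoter, against 65.9% of all protein-coding genes (14452 of 21938). Open promoters were also present at 42 of 42 other replication genes, 59 of 59 other mitotic genes and 32 of 32 cell cycle control genes, such as E2F, retinoblastoma and cyclin D family members. The median promoter signal of the members was 12.8 in both replicates, whereas the medians of all open promoters were 11.3 and 11.1. In both replicates 32 of the 45 members stood above the median of all open promoters, as did 47.2% of all open promoters. So did 33 of 42 other replication genes, 48 of 59 other mitotic genes and 13 of 32 cell cycle control genes. Above percentile 75 stood 15 members and 22.1% of open promoters, and below percentile 25 stood 2 members, Mcm2 and Aurkb, and 23% of open promoters. Because the series has 1 group and genes are not replicates, these counts are descriptions without a test.

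Among the genes of origin licensing and firing the promoter signal spanned a wide range. Mcm10, which helps to switch on the helicase, had 16.7 and 16.1, and Orc1, the largest subunit of the origin recognition complex, had 16.2 and 17.1. Orc6, another subunit of that complex, had 16.1 and 15.6, and Gins2, a subunit of the GINS complex, had 15.8 and 15.9. These values put all 4 genes above percentile 75 of open promoters in both replicates. The 6 subunit genes of the helicase ring differed in level. Mcm4 had 15.1 and 14.6, Mcm5 12.8 and 11.9, and Mcm3 11.7 and 10.8. Mcm7 had 10.8 and 11, and Mcm6 had 10.6 and 10.8. Mcm2 was lowest at 6.21 and 6.19 in a region of 798 and 783 bp at chr6:88898288-88899085. Its percentile among open promoters was 13.8 and 14.6, whereas Mcm4 stood at 82.8 and 82.3. The loading factors Cdc6 (14.9 and 13.5) and Cdt1 (10.8 in both) also differed, and Gins1 had 12.8 and 12.4. The Gins1 value belongs to a region that holds a start of Abhd12 and none of Gins1. Its summit lay at −696 and −584 bp from the nearest Gins1 start, upstream of it. The region ended at position 150905110, before the gene start at 150905400. Another promoter region of Gins1, chr2:150909473-150910254, had a lower signal of 9.98 and 9.15.

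At the replication fork, Lig1, which encodes the ligase that seals Okazaki fragments, was highest with 16.6 and 16.1. The clamp loader genes Rfc3 (15.4 in both) and Rfc4 (11.8 and 12.8) followed at different levels. Pcna, the sliding clamp, had 12.3 in both replicates. Pola1, the catalytic subunit of the polymerase that starts new strands, had 11.5 and 10, and Pole, that of the leading-strand polymerase, had 10 and 9.33. Fen1, the flap endonuclease of Okazaki fragment processing, had 9.55 and 9. The ribonucleotide reductase genes lay far apart, with 15.2 and 15.5 for the large subunit gene Rrm1 and 8.24 and 7.75 for the small subunit gene Rrm2. Rrm2 had the widest region of all members, 2180 bp in replicate 1 and 3971 bp in replicate 2, at chr12:24706862-24710870. These widths are those of the strongest region of each replicate within the joined region of 4009 bp. In replicate 1 that region ended at position 24709041, so its width covers only a part of the joined stretch.

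In the mitotic class most values lay in a narrow band. Cenpf, a large kinetochore protein gene, had the highest signal of all members with 18.2 and 18 at chr1:189687789-189688713, which is percentile 98.2 and 98.5. The other centromere genes had 14.2 and 13.3 (Cenpa, the centromeric histone) and 10.7 and 10.6 (Cenpe, a kinetochore motor). The cyclin genes Ccna2 (16.1 and 15.4) and Ccnb2 (16.3 and 14.4) and the kinase gene Aurka (16.2 and 14.3) stood above percentile 75 in both replicates. Ccnb1, which encodes the main mitotic cyclin, had 11.5 in both replicates, its partner kinase gene Cdk1 had 13.5 and 12.9, and Plk1, the Polo-like kinase gene, had 11 and 10.9. Aurkb, the kinase gene of the chromosomal passenger complex, was the weakest of all 45 members with 4.56 and 4.85 at chr11:69045501-69046563. It stood at percentile 6.17 and 8.04, while Birc5, which encodes survivin of the same complex, had 12.9 and 12.7.

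The spindle checkpoint genes lay close together. Cdc20, the checkpoint's target and activator of the anaphase-promoting complex, had 14.5 and 14.8, and Mad2l1 had 14.1 and 14.4. Bub1 (13.8 and 13.3), Bub1b (12.8 and 14.1) and Ttk (13 and 12.8), which encode checkpoint kinases or kinase-like proteins, lay close below, and all 5 genes stood above the median of open promoters in both replicates. The kinesin genes Kif11 (14.2 and 12.7) and Kif20a (12.8 and 14) exceeded Kif23 (9.30 and 9.71). Top2a, the topoisomerase of chromosome condensation, had 14.3 and 14.1, and Mki67, whose product coats mitotic chromosomes, had 12.4 in both. Foxm1 had 11.7 in both replicates and E2f1 had 12 and 11.5, close to the median of open promoters.

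**Figure D1:**
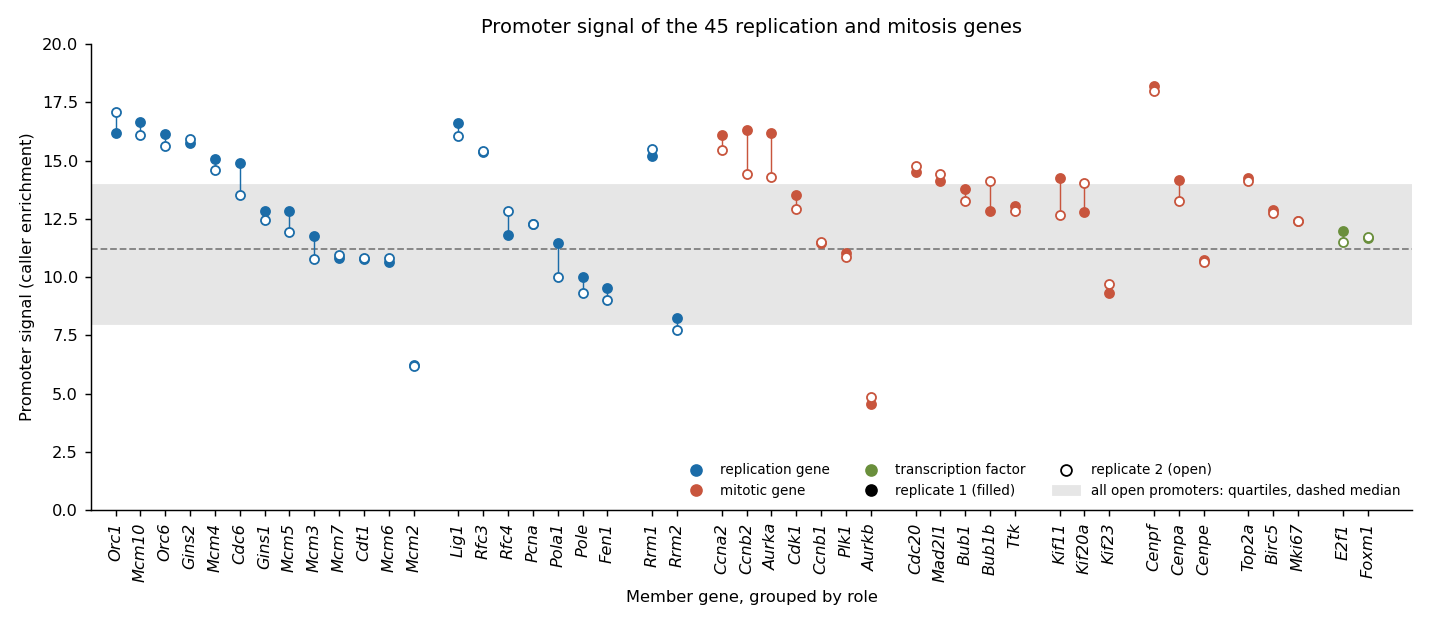
Promoter signal (enrichment given by the authors' caller, vertical axis) of the 45 members, grouped by role, with replicate 1 filled and replicate 2 open. The grey band marks the quartiles of all open promoters and the dashed line their median. Cenpf is highest at 18.2 and 18, while Aurkb (4.56 and 4.85) and Mcm2 (6.21 and 6.19) lie below the band.

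The replicates gave similar values for each member. The signal of replicate 1 divided by that of replicate 2 ranged from 0.908 to 1.14, with 27 members above 1 and 18 below. Percentiles of a member differed by a median of 2.87 points and at most 14.7 points between the replicates. The summits of the promoter regions lay a median of 2 bp and at most 271 bp apart. In replicate 1 the summit lay within 100 bp of a start at 30 of 45 members and in replicate 2 at 31, and the median position relative to the nearest start was −56 bp and −36 bp. Among all open promoters 56.2% of summits, averaged over the replicates, lay that close.

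Replication and mitotic genes overlapped in promoter signal. The median was 12.5 and 12.4 for replication genes and 13.5 and 13.3 for mitotic genes. The interquartile range of the signal was 4.54 and 4.69 in replication genes, against 1.87 in mitotic genes in both replicates, so the difference of the medians, −0.97 and −0.91, was smaller than either range. Of the 22 replication genes 9 lay above the mitotic median in each replicate. The median percentile was 60.8 and 61.6 for replication genes and 69.9 and 70.1 for mitotic genes. Ranked by −log10 q of the same lists, the order turned round: the median percentile was 72.4 and 73.4 for replication genes and 71.8 and 69.8 for mitotic genes. No order of the classes in promoter strength can be drawn from these values. By −log10 q, 0 of the 45 members stood below percentile 25 in both replicates. By the definition of a percentile, about 25% of all open promoters stand below it in each replicate. The share below it in both replicates was not counted for this ranking. Aurkb stood at percentile 26.2 and 29.1 and Mcm2 at 38 and 39.1. Cenpe (27 and 28), Pola1 (29.8 and 27.3) and Fen1 (34.8 and 36) also stood below Mcm2 in this ranking. In replicate 2 Pola1 and Cenpe stood below Aurkb.

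**Figure D2:**
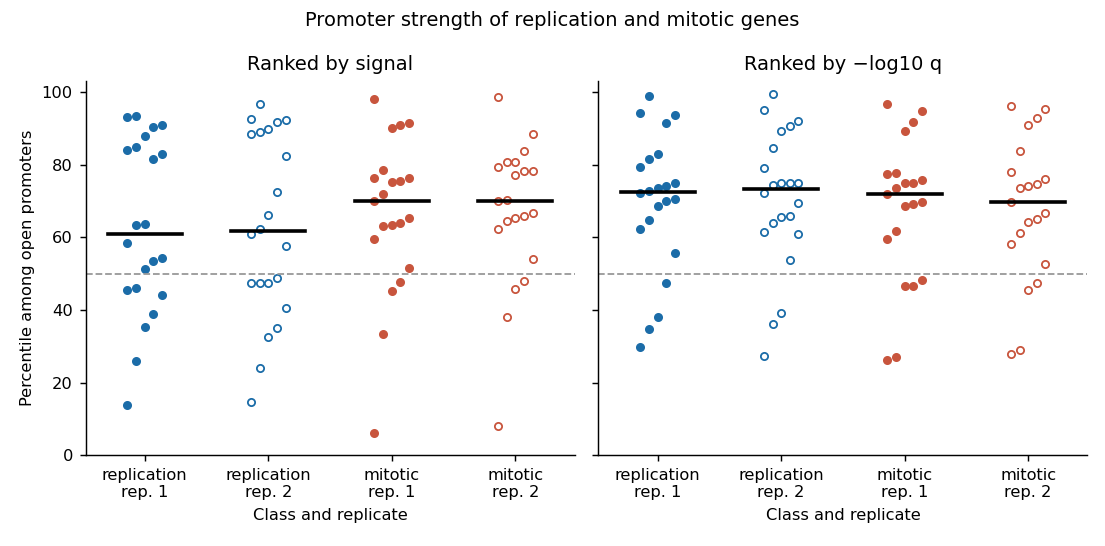
Percentile of each promoter among all open promoters (vertical axis) for 22 replication genes and 21 mitotic genes in each replicate, ranked by signal on the left and by −log10 q on the right. Black bars are medians and the dashed line marks percentile 50. Ranked by signal the mitotic medians are the higher ones, and ranked by −log10 q the replication medians are slightly higher.

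Widths differed little between the classes. The median width of the promoter region was 1243 and 1306.5 bp (replicates 1 and 2) in replication genes and 1338 and 1385 bp in mitotic genes, a ratio of 0.929 and 0.943. The median of all open promoters was 1267 and 1270 bp. The interquartile ranges of the classes overlapped, from 1077 to 1560 bp in replication genes and from 1063 to 1496 bp in mitotic genes in replicate 1. By the mean of both replicates, the narrowest regions were those of Mcm2 (798 and 783 bp), Bub1b (805 and 785 bp) and Cenpf (799 and 925 bp), so the weakest promoter of the Mcm genes and the strongest promoter of all members were both narrow. Plk1 had the widest mitotic region at 1858 and 1912 bp.

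Many replication genes share their promoter region with a neighbour. At 11 of 22 replication genes a start of another gene lay inside the region, and at 8 of them that gene was protein-coding. At mitotic genes these counts were 3 and 2 of 21. Among all open promoters 28.8% held a start of another gene and 18.5% one of another protein-coding gene. The coding pairs of the replication class were Mcm4 with Prkdc, Mcm7 with Ap4m1, Orc1 with Prpf38a, Orc6 with Vps35, Gins1 with Abhd12, Pole with Pxmp2, Fen1 with Tmem258 and Lig1 with Zswim9. The region assigned to Gins1 held a start of Abhd12 but none of Gins1. Those of the mitotic class were Aurka with Cstf1 and Kif20a with Brd8, and Foxm1 was paired with Rhno1. The partner was transcribed from the opposite strand in each of these pairs. The nearest starts lay 11 bp apart at Orc6 and Vps35, 12 bp at Kif20a and Brd8 and 659 bp at Gins1 and Abhd12. The signal of a shared region cannot be divided between its genes. Replication genes with another start inside the region had a median signal of 12.8 in both replicates, and those without one had 11.7 and 10.8. The 18 mitotic genes without another start had 13.6 and 13.1.

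The motifs found at the summits were not the same in both classes. An E2F motif, written here as TTTCCCGC or TTTGGCGC on either strand, lay within 100 bp of the summit in both replicates at 8 of 22 replication genes and at 0 of 21 mitotic genes, against 1.53% of all open promoters. The count depends on the window: within 50 bp of the summit the motif lay at 1 of 22 replication genes, Mcm6, and 0 of 21 mitotic genes, against 0.616% of open promoters. The 8 genes were Mcm3, Mcm4, Mcm5, Mcm6, Mcm7, Pole, Rfc3 and Rrm2, and Pola1 had a match in the window of replicate 1 only. Among the helicase ring genes only Mcm2 had no match. E2f1 itself had a match. Other spellings of E2F sites were not searched, so the absences hold for TTTCCCGC and TTTGGCGC only. A CHR motif, written as TTTGAA or TTCGAA on either strand, lay there at 2 of 22 replication genes and 10 of 21 mitotic genes, against 6.14% of all open promoters. Within 50 bp of the summit these counts were 0 of 22 and 4 of 21, against 2.77% of open promoters. The replication genes were Mcm7 and Rrm1, and the mitotic genes were Ccnb2, Cdk1, Aurkb, Bub1, Bub1b, Ttk, Cdc20, Kif23, Top2a and Mki67. Mcm2 and Plk1 had a match in the window of replicate 1 only. Foxm1 had a CHR motif too. No member had both motifs except Mcm7. Other spellings of the CHR were not searched either, so its absences hold for TTTGAA and TTCGAA only. A match is a run of letters and does not show that a protein was bound.

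The sequences of 4 members with an E2F motif are shown because they had the highest promoter signal of the genes with that motif. They are read 5′ to 3′ on the strand of the gene in GRCm38.p6. Capitals mark the E2F motif, as a run of 8 letters on either strand, and any CCAAT box (CCAAT or its complement ATTGG), as a run of 5.
Rfc3 (chr5:151651141-151651268, minus strand): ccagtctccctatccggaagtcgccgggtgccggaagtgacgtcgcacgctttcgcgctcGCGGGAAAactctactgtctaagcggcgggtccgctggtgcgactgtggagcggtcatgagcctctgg
Mcm4 (chr16:15637557-15637684, minus strand): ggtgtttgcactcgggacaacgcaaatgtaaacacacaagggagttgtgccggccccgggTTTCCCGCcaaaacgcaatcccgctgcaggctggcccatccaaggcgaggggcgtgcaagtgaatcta
Mcm5 (chr8:75109501-75109628, plus strand): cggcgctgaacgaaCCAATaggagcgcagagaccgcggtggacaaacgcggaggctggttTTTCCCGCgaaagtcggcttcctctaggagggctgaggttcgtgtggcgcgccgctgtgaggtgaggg
E2f1 (chr2:154569808-154569935, minus strand): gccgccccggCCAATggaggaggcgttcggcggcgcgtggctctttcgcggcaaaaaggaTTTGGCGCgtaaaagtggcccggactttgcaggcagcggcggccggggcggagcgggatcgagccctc

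The E2F motif lay at −2 bp from the nearest start at Rfc3, −4 bp at Mcm5 and 20 bp at E2f1, measured from its centre, with negative positions upstream. At Mcm4 it lay at −220 bp, between the starts of Mcm4 and Prkdc. Over the 8 replication genes, the match nearest to a start had a median position of −5 bp, with 5 of 8 within 50 bp of it, against 44.8% of the 221 open promoters with the motif.

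The 4 members with a CHR motif and the highest promoter signal are shown in the same way. Here runs of 6 capitals are the CHR motif and runs of 5 are CCAAT boxes.
Rrm1 (chr7:102441726-102441851, plus strand): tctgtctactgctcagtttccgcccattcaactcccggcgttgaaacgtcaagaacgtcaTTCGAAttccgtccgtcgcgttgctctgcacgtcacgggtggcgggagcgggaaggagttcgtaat
Ccnb2 (chr9:70421485-70421610, minus strand): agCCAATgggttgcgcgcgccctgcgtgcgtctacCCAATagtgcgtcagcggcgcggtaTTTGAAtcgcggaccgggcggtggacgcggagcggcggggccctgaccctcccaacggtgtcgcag
Cdc20 (chr4:118437296-118437421, minus strand): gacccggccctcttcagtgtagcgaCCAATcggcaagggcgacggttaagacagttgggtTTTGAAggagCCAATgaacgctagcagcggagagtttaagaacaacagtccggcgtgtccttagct
Top2a (chr11:99024303-99024428, minus strand): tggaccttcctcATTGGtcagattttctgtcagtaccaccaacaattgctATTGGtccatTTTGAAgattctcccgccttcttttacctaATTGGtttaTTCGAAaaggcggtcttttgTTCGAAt

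The windows lie around summits that are themselves near starts, which limits how far a match can be from one. The CHR match nearest to a start had a median position of −1 bp over the 10 mitotic genes, and 8 of 10 lay within 50 bp, against 29.8% of the 887 open promoters with the motif. Its centre was at the annotated start in Ccnb2 (0 bp) and at −6 bp in Cdc20. Top2a had 3 CHR matches, the nearest at −118 bp. At Rrm1, the replication gene in this set, the match lay at 94 bp, downstream of the start. The longer element GGCGG followed by 4 bases and TTTGAA, which joins a cell cycle-dependent element to a CHR, was found at 0 of 45 members and 0.0208% of open promoters.

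CCAAT boxes, the sites of the factor NF-Y, were frequent in both classes. They lay in both summit windows at 15 of 22 replication genes and 16 of 21 mitotic genes, against 27.2% of open promoters. The 15 include Gins1, whose box lay at −662 bp from its nearest start, in the region that holds a start of Abhd12. All 10 mitotic genes with a CHR motif also had a CCAAT box, as did 40.1% of the open promoters with a CHR motif. In replicate 1, 2 or more boxes lay at 6 of 22 replication genes and 13 of 21 mitotic genes, against 10.7% of all open promoters. Neighbouring boxes of Ccnb1, Cdk1 and Aurka lay 32 bp apart, those of Ccnb2 33 bp and those of Aurkb 30 bp. A distance of 30 to 35 bp, a range chosen after the other motif counts were seen, was found at 0 of 22 replication genes, 5 of 21 mitotic genes and 2.46% of open promoters. Such a distance requires 2 or more boxes. Among genes that had them it was found at 0 of 6 replication genes, 5 of 13 mitotic genes and 356 of 1549 open promoters. Of the 45 members, 8 had no E2F motif, CHR motif or CCAAT box within 100 bp of the summit of either replicate, 4 in each class, against 61.8% of open promoters.

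**Figure D3:**
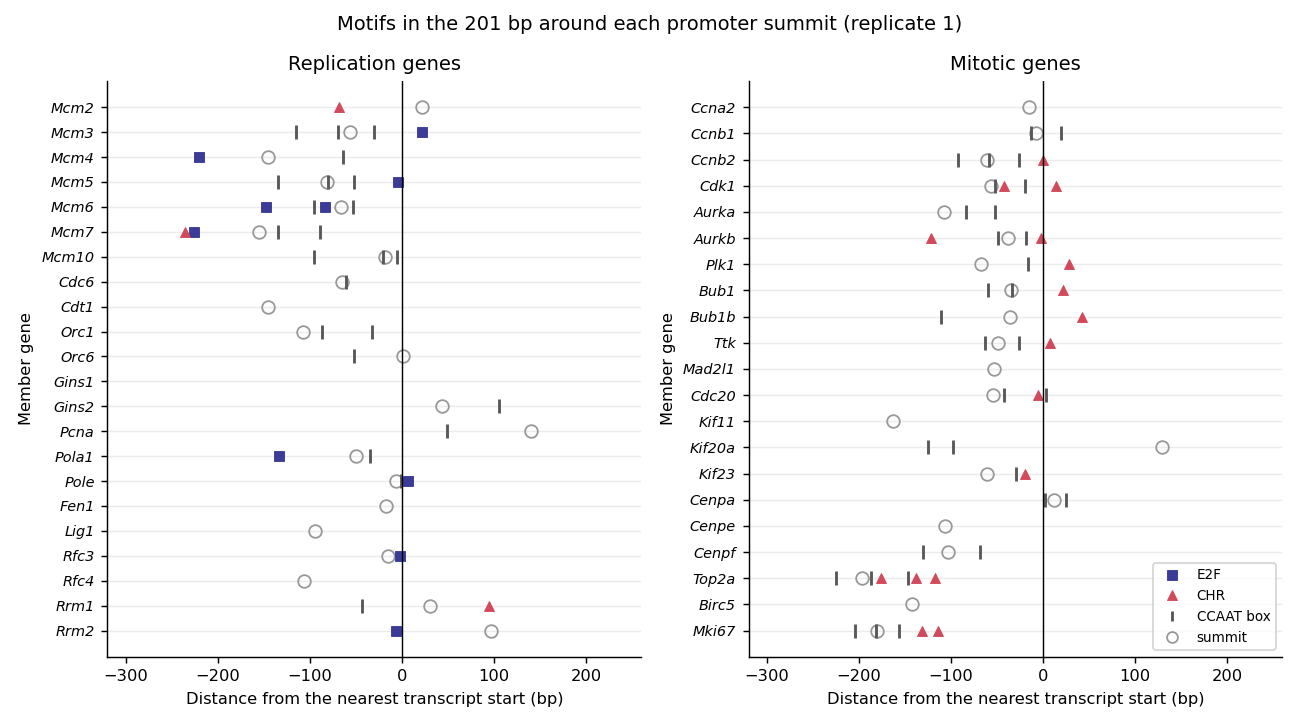
Position of E2F motifs (squares), CHR motifs (triangles), CCAAT boxes (ticks) and the summit (circles) relative to the nearest transcript start in bp, for each replication gene (left) and mitotic gene (right), within 100 bp of the summit of replicate 1. E2F motifs appear only in the left panel, and CHR motifs of mitotic genes lie mostly within 50 bp of the start. Gins1, with its summit at −696 bp, lies outside the axis.

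The same motifs were counted in replication and mitotic genes that are not members. The E2F motif was present at 8 of 42 other replication genes and 4 of 59 other mitotic genes, and the CHR motif at 2 of 42 and 19 of 59. CCAAT boxes were present at 18 of 42 other replication genes and 43 of 59 other mitotic genes. The absence of E2F motifs from the mitotic members was thus not shared by every gene of that kind. Of the other motifs searched, GGGCGGG, a site of Sp and Klf factors, occurred at 9 of 22 replication genes and 9 of 21 mitotic genes, against 32.3% of open promoters. The 9 replication genes include Gins1, by the region that holds a start of Abhd12. CCGGAAG, a site of ETS factors, occurred at 5 genes of each class, against 12.9%. CACGTG, an E-box, occurred at 4 of 45 members (5.82% of open promoters) and TGACGTCA, a cyclic AMP response element, at 1 (2.13%). GCGCATGC of NRF1 (3.22%), GTAAACA of forkhead factors (1.08%) and TGTGGTT of Runx factors (2.91%) lay within 100 bp of the summit in both replicates at 0 of 45 members. With shares this low among open promoters, a count of 0 of 45 says little. The GTAAACA in the Mcm4 sequence printed above lies outside that window. FOXM1 is a forkhead protein, and the lack of those letters in these windows says nothing about its binding.

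**Figure D4:**
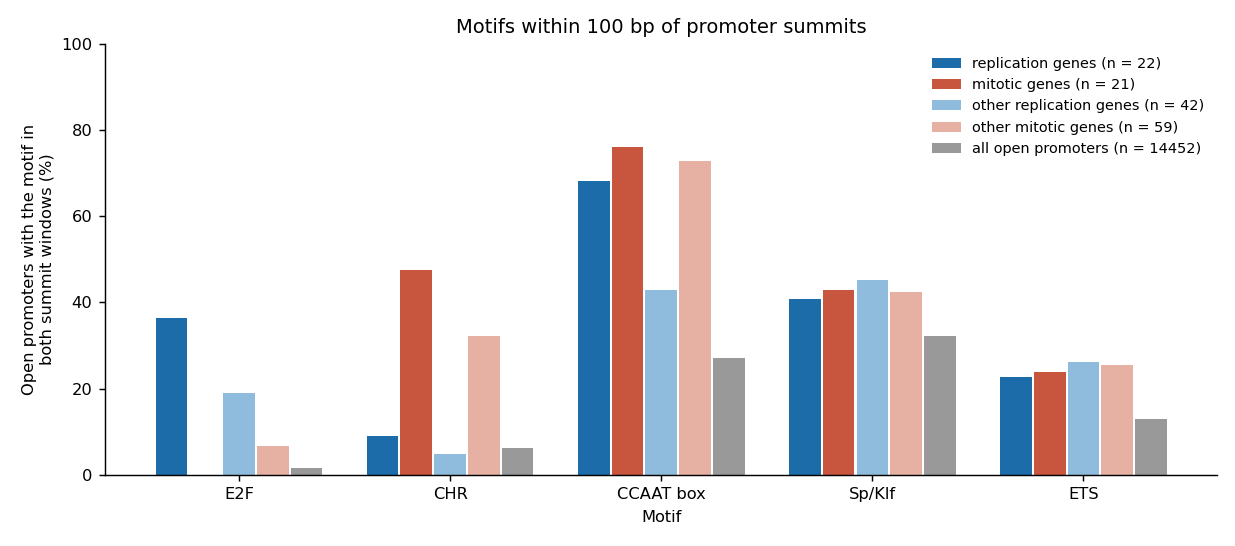
Share of open promoters with each motif within 100 bp of the summit in both replicates (vertical axis, percent) for the 22 replication genes, 21 mitotic genes, 42 other replication genes, 59 other mitotic genes and all 14452 open promoters. E2F bars are highest in replication genes and CHR bars in mitotic genes, while Sp/Klf and ETS bars are alike in both classes.

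Base composition did not separate the classes. The sequence within 100 bp of the summit had a median GC content of 62.7% in both replication and mitotic genes, against 64.2% in all open promoters. The ratio of observed to expected CpG was 0.954 in replication genes and 0.944 in mitotic genes, and 0.799 in all open promoters. Top2a had the lowest GC content of the members at 42.8% and Cenpa the lowest CpG ratio at 0.419.

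Open regions away from promoters were counted too. Extended by 20 kb at each end, the 45 genes held 255 shared regions, of which 60 were promoters of the members, 59 were promoters of other genes and 136 were distal, that is over 1 kb from every annotated start. At least 1 distal region was present at 40 of 45 members, against 72.1% of all protein-coding genes. The median was 3 distal regions per gene in replication genes and 3 in mitotic genes, and 2 over all protein-coding genes. Related to the summed length of the windows, replication genes had 4.42 distal regions per 100 kb and mitotic genes 4.88, and all protein-coding genes had 3.65. Long genes weigh most in such a pooled rate. The longest replication gene, Pola1, had 2.18 per 100 kb, so no order of the classes is drawn from these rates. Mcm7, Rfc3, Mad2l1, Birc5 and Foxm1 had 0. The highest counts were 8 at Pola1, a gene of 327389 bp, and 7 at Cdc6 and at Bub1b. Of the 136 distal regions 36 overlapped the body of the member gene itself, and the matching share over all protein-coding genes was not counted.

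The signal of these distal regions lay near or below that of distal regions over the genome. Their median signal was 6.06 and 5.35 at replication genes and 6.18 and 5.55 at mitotic genes, and 6.37 and 6.15 over all 62842 distal regions. In 12 cases at 10 genes a distal region had a higher signal than the member's own promoter in both replicates, 8 of them at 6 replication genes and 4 at 4 mitotic genes. Of all genes with an open promoter 39.6% had such a region. Inside Bub1b an intronic region had 16.5 and 17.2 (chr2:118620314-118621253) at 22.6 kb from the gene start. At Mki67 an intergenic region at −19.6 kb, upstream of the gene, had 16 and 15.6 (chr7:135735507-135736634). At Pole an intronic region 14.5 kb downstream of the start had 15 and 16 (chr5:110300233-110301271). At Pcna regions at −16.1 kb (15.6 and 15.2) and 22.9 kb (15.4 and 13.8) exceeded the promoter. Mcm2 and Aurkb, the members with the lowest promoter signal, were both among the 10 genes. The region near Mcm2 lay 29.1 kb downstream of its start in an intron of another gene (13 and 13.8), and that near Aurkb lay at −4.54 kb (6.67 and 5.67). The distal region with the highest mean signal at any member lay in an exon of Cenpf, 30.4 kb downstream of its start (18.1 and 17.1 at chr1:189657305-189658099). In replicate 2 the Bub1b region was slightly higher. The Cenpf region was close to the Cenpf promoter in replicate 1 (18.1 against 18.2) and lower than it in replicate 2 (17.1 against 18). These regions lie near the genes, and which gene each of them acts on was not measured.

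**Figure D5:**
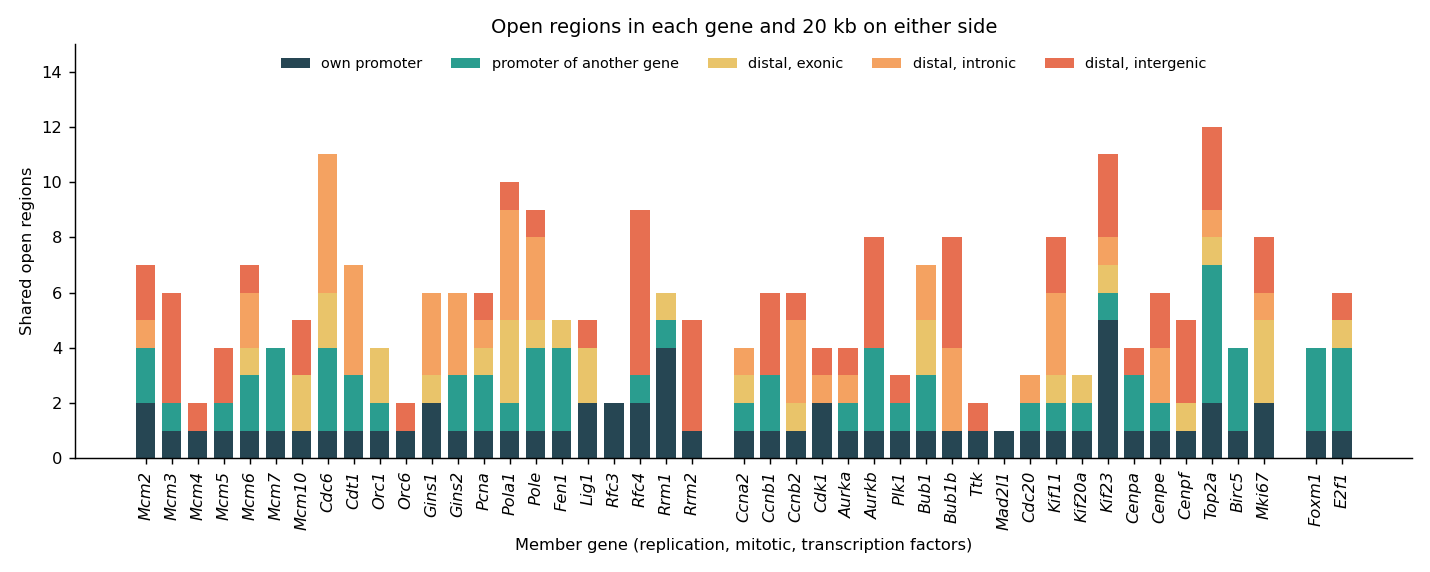
Number of shared open regions in each member gene and 20 kb on either side (vertical axis), stacked by location: own promoter, promoter of another gene, and distal regions in exons, introns and between genes. Top2a has the most with 12, Mad2l1 has only its own promoter, and Pola1 has the most distal regions with 8.

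Related genes outside the set gave the range for comparison. The other replication genes ran from Tk1, the thymidine kinase gene, at 4.26 and 3.53 (mean percentile 4.11) to Gins3, a further GINS subunit gene, at 18.1 and 17.2 (97.5). The other mitotic genes ran from the kinesin gene Kif2c at 8.68 and 7.96 (27.3) to the kinesin gene Kifc1 at 19.3 and 20.2 (99.6). The median percentile was 77.3 and 75.3 in the other replication genes and 77.7 and 77.5 in the other mitotic genes. These medians exceeded those of the member classes, 60.8 and 61.6 for replication genes and 69.9 and 70.1 for mitotic genes. Cell cycle control genes had a median percentile of 42.7 and 41.5, from Ccnd2, which encodes cyclin D2, at 3.80 and 3.94 to E2f5 at 15.7 and 15.5. The Ccnd2 region was 3744 and 3757 bp wide, so a low signal there went with great width, as at Rrm2, whereas the weak Mcm2 and Aurkb regions were of 783 to 1063 bp.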

How the data were processed

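Samples labelled as ATAC-seq of T-helper 1 cells gave 1 group of 2 biological replicates with 1 list of open regions each. Whether the libraries were plain ATAC-seq is not certain. Per the file headers and labels, each list derives from the alignments of that replicate alone on mm10. No source used here names the aligner or region caller, and the read depth is unknown, so no counting interval is given. The deposited lists hold a signal value per region (the enrichment given by the authors' caller), −log10 p and −log10 q, a display score that was not used, and the offset of the summit. The values belong to single regions and describe or rank regions within their list.

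Regions of both lists on chromosomes 1 to 19, X and Y that overlapped by at least 1 bp were joined into shared regions, and each kept the strongest signal, width and summit of each replicate. Genes and starts came from GENCODE M21 and sequence from RefSeq GRCm38.p6, which has the coordinates of mm10. A gene's promoter region was the strongest shared region no more than 1 kb from a start of that gene, and percentiles are among the 14452 protein-coding genes with such a region. Distal regions lie over 1 kb from every annotated start and were counted in each gene extended by 20 kb at both ends. Motifs were searched on both strands within 100 bp of each summit. With 1 group, and with genes not being replicates, no test was run. Members, lists, motifs and naming rules were chosen with earlier results of these data known. All members may be named, and of other lists the extremes by percentile, and neighbours that share a region. A marker gene of the other cell types is not reported here, for a reason unrelated to its value. Region joining, ranking and counting were tested on simulated data. Python 3.11.15, pandas 2.3.3 and pysam 0.24.0 were used. Alternatives were other promoter windows, starts, filters, ranks, flanks and motif windows, and either replicate alone.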

Additional observations from a re-analysis of the deposited data

How the results depend on the processing

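All 45 members kept an open promoter with a window of 500 bp and with coding starts. The other settings could not lose a member. A 2.5 kb window and either replicate alone only widen the search. The lowest −log10 q of a member was 104 and 91.9, against a required minimum of 5. The 30 members with no start of another gene in the region were taken from members already open. The difference in median percentile, replication minus mitotic genes, was −8.76 points. It was −12 with coding starts, −11.5 with the region nearest to a start, −4.84 with Foxm1 and E2f1 counted as mitotic, −19.1 without regions that hold another gene's start, and 2.08, the opposite sign, when ranked by −log10 q. With either replicate left out it was −8.94 to −8.36. The width ratio of 0.936 was 0.905 without regions that hold another gene's start. The median number of distal regions did not differ (0), and the difference was −0.5 with 50 kb flanks and 1 with Foxm1 and E2f1 counted as mitotic. The E2F motif was more frequent in replication genes by 38.6 percentage points as a mean of both replicates, by 6.82 within 50 bp of the summit, 52.3 within 200 bp, 45.5 from 250 bp before to 50 bp after a start, and 34.3 with Foxm1 and E2f1 counted as mitotic. For the CHR motif the difference of −38.6 points was −23.8, −62.8 and −48.5 in those windows. Beyond the windows themselves, the causes were not tested. No paired analysis was possible because the series has 1 group.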

Other observations

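Within 200 bp of the summit, a CHR motif was present in both replicates at 4 of 22 replication genes and 17 of 21 mitotic genes, against 13.3% of open promoters. The mitotic genes added by the wider window were Plk1, Aurka, Birc5, Cenpa, Cenpf, Kif11 and Mad2l1. Neither TTTGAA nor TTCGAA was present there in both replicates at Ccna2, Ccnb1, Kif20a and Cenpe. Other spellings of the CHR were not searched. An E2F motif was present in that window at 11 of 22 replication genes, with Cdc6, Gins2 and Pola1 added, and at 0 of 21 mitotic genes, against 3.03% of open promoters. Among genes outside the set, the CHR motif was present there at 4 of 42 other replication genes and 38 of 59 other mitotic genes, and the E2F motif at 11 of 42 and 7 of 59.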
